A study of Arabidopsis thaliana with 12 samples.

Results

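Gene expression of mock-treated *A. thaliana* shoots was described from 4 of the 12 RNAseq libraries of the series, namely the 4 DMSO replicates, chosen by their treatment label. All 12 libraries came from Col-0, the wild-type accession, and were made from shoots that the labels call leaves. The seedlings were grown on MS medium and moved to poor nutrient medium at an age of 7 days (10 days in the growth protocol of the labels), and they were treated 2 days later. The mock group received 0.12% DMSO, the solvent of the steroids, for 1 h. The other groups, with 4 libraries each, received 10 µM progesterone (PO) or 10 µM testosterone (TO) for 1 h, and were used here only for the spread among their own replicates. No level was compared between treatments. The study calls the replicates biological, and its methods and the labels do not say how many seedlings were pooled in a library. In bulk RNA, fewer cells of a type and less RNA per cell cannot be told apart.

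A green shoot devotes much of its messenger RNA to photosynthesis. Nuclear genes encode the light-harvesting proteins that bind chlorophyll, the small subunits of Rubisco and many subunits of the photosystems, while the chloroplast genome encodes the core proteins and its own ribosomal RNA. Other genes are known for responses within minutes to touch, wounding, cold, light or sugar, and handling a seedling is known to change their RNA. Brassinosteroids (BRs), the steroid hormones of plants, are made from sterols by DET2 and a row of cytochromes P450, and are perceived by the receptor kinase BRI1.

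The deposited table gave whole counts for 38618 loci. The 4 mock libraries held 60728111, 51419801, 50443138 and 52229702 counts in replicates 1 to 4, the order in which values are given throughout. Levels are given as CPM (counts per 1000000 counts of the library), and SD stands for the standard deviation over the 4 libraries (n = 4). A locus without counts may still have a level of up to 3 counts, which was 0.0494 to 0.0595 CPM in these libraries if each count is an independent molecule. Of the counts from 1 to 20, however, 70.2% to 72.3% were even numbers in each library, so counts were not all independent and this limit is too low by an unknown factor. Of the 38618 loci, 9168 had 0 counts in all 4 libraries, and 29450 had a count in at least 1. At least 1 CPM in each library was reached by 18879 loci, 10 CPM by 11666, 100 CPM by 1407 and 1000 CPM by 72. The 10 loci with the highest counts took 8.74% ± 0.560 of a library and the highest 100 loci 24.7% ± 0.768. Nuclear protein-coding loci held 93.1% to 94.0% of the counts, and the chloroplast genome 0.850% to 1.25%. Exons of 36.7% of the 15345 loci with a mean of at least 5 CPM overlapped those of another locus. The options of the counting are not given in the sources used here, so the values of overlapping loci are uncertain.

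The highest levels belonged to genes of photosynthesis. *CAB1* (AT1G29930, chromosome 1 from 10477885 to 10479114 of TAIR10.1), which encodes a chlorophyll-binding protein of photosystem II, had 15860.5, 19716, 16518 and 17222 CPM. Replicate 2 was the highest and replicate 1 the lowest, and the mean was 17329 ± 1685 CPM. *LHB1B2* (AT2G34420), another light-harvesting gene, had 11326, 15280.4, 11566 and 12221 CPM, again highest in replicate 2. All 1045 of its exonic bases overlapped AT2G08665, a locus on the other strand, so the level of either is uncertain. *RBCS1A* (AT1G67090), a gene for the small subunit of Rubisco, had 10072, 9013, 12046 and 11152 CPM, and here replicate 2 was the lowest. The mean of each of these 3 genes was above 10000 CPM. Of the 20 nuclear protein-coding loci with the highest CPM, 16 were on the photosynthesis list, and the others were *HSC70-1*, *THI1*, *GRP7* and *GGT1*. *HSC70-1*, a cytosolic chaperone made in unstressed cells, had 4245 ± 343 CPM. *THI1*, which makes the thiazole part of thiamine, had 4209 ± 346 CPM. *GRP7*, a clock-controlled RNA-binding protein, had 3528 ± 499.8 CPM. *GGT1*, an aminotransferase of photorespiration, had 2655 ± 354 CPM.

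**Figure D1:**
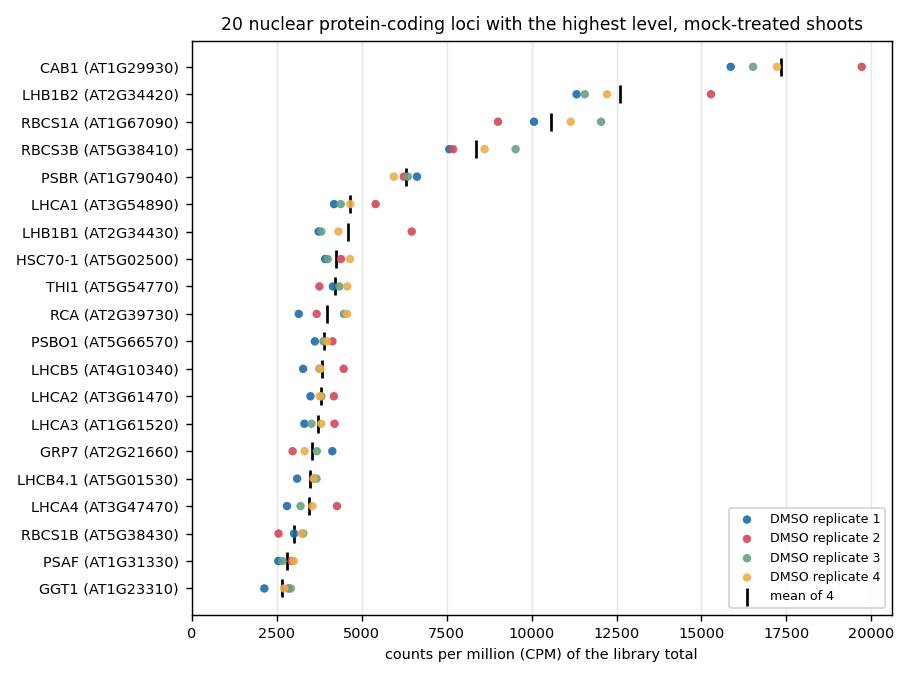
CPM of the 20 nuclear protein-coding loci with the highest mean in the mock-treated shoots, with 1 point for each of the 4 DMSO libraries and a bar for their mean. *CAB1* lay between 15860.5 and 19716 CPM, and replicate 2 was the highest library for *CAB1*, *LHB1B2* and *LHB1B1* but not for *RBCS1A*.

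For levels between genes, counts were divided by the length of the merged exons and scaled to the same total in each library (TPM). On this scale *CAB1* had 19373 ± 1950.3 TPM, *LHB1B2* 16576 ± 2416 TPM, *RBCS1A* 11471 ± 1536 TPM and *PSBR* 11030.4 ± 337 TPM. *PSBR*, a small subunit of photosystem II, differed least between the libraries, with 6628, 6239.9, 6358 and 5947 CPM. *RBCS3B*, another Rubisco small subunit gene, followed with 8154 ± 979.7 TPM. Assignment of reads between close relatives was possible, since 17.0% of the 50-base pieces of the *CAB1* exons and 16.5% of those of *RBCS3B* also occurred elsewhere in the genome. AT4G28755 and AT1G55673, which reached 5481 ± 431 TPM and 4839 ± 364 TPM, are short loci that overlap the photosystem I genes AT4G28750 and AT1G55670, so their levels are uncertain.

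The 64 nuclear photosynthesis genes took 14.6% ± 0.948 of all counts (13.4% to 15.72%) and 16.7% ± 1.16 of the TPM. Within the photosystem I antenna, *LHCA1* had 5037 ± 596 TPM, *LHCA2* 3727 ± 298 TPM, *LHCA4* 3674 ± 679.9 TPM and *LHCA3* 3143 ± 345 TPM, while the minor members *Lhca5* and *Lhca6* had 96.0 ± 14.2 TPM and 51.7 ± 7.45 TPM. *RCA*, which reactivates Rubisco, had 2602 ± 482 TPM, and *PSAF*, a photosystem I subunit that docks plastocyanin, had 3192 ± 289 TPM. The lowest member was *PSBP-2*, with 2.01 ± 0.324 TPM, whereas its relative *PSBP-1*, a subunit of the oxygen-evolving complex, had 2233 ± 216 TPM. *LHCA2* and *LHCA4* differed by less than their spread over the libraries, whereas *Lhca5*, *Lhca6* and *PSBP-2* were far below their relatives.

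Upstream sequences of these genes were read from RefSeq (TAIR10.1), as the 200 bases before the annotated start of each of 14531 nuclear protein-coding loci with a mean of at least 5 CPM. The letters searched, on both strands, were those of 10 known elements, namely the G-box CACGTG, the rapid stress element CGCGTT, the W-box forms TTGACC as well as TTGACT, the dehydration element CCGAC, the evening element AAATATCT, the I-box GATAAG, the TATA box TATAAA, the GCC box GCCGCC and the heat shock element GAANNTTC. The W-box forms differ only in their last base and cannot both match at the same place. GATAAG, known from light-regulated promoters, occurred in 27 of 100 (27.0%) promoters of the loci with the highest CPM, in 13 of 63 (20.6%) on the photosynthesis list and in 1523 of 14531 (10.5%) of all promoters. AAATATCT, known from clock-controlled promoters, occurred in 11 of 100 (11.0%) of these loci and in 605 of 14531 (4.16%) of all promoters, but in 0 of 63 (0%) on the photosynthesis list. CACGTG occurred in 11 of 100 (11.0%) of the loci with the highest CPM, in 12 of 63 (19.0%) on the photosynthesis list and in 944 of 14531 (6.496%) of all promoters. TATAAA occurred in 39 of 100 (39.0%) of the loci with the highest CPM and in 5642 of 14531 (38.8%) of all promoters. The following promoters are shown because they belong to 3 of the 20 highest loci and hold GATAAG or its reverse complement, which is in capitals. A match is a description and not a known site.
RCA promoter, chr2:16573693-16573892, minus strand: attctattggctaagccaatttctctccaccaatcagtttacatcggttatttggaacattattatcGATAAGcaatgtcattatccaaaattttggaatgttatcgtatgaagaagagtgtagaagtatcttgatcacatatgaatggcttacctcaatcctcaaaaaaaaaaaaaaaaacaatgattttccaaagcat
LHCA1 promoter, chr3:20341177-20341376, minus strand: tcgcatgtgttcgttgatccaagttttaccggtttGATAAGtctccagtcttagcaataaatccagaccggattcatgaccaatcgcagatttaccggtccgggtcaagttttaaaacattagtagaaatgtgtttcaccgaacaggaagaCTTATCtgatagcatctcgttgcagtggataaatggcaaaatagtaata
PSAF promoter, chr1:11216142-11216341, minus strand: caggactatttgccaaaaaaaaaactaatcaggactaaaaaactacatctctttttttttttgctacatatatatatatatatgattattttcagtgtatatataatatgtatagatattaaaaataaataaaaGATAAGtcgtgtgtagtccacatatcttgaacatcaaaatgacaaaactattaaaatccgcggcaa

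*LHCA1* held the letters at 2 places and *RCA* and *PSAF* at 1 place each. The promoters of *CAB1* and *RBCS1A*, which were among the genes with the highest counts, held no GATAAG in this window. No test was made of these shares, and the letters were chosen with the levels known.

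Genes for protein synthesis took a smaller part. The 344 nuclear loci whose product name holds "ribosomal protein" took 4.06% ± 0.133 of the counts, and 301 of them had a mean of at least 5 CPM. The heat shock genes, 24 of 28 of them matched, took 0.986% ± 0.143, with *HSC70-1* the highest. Nitrate genes took 0.644% ± 0.0681. In this list *GS2*, the plastid glutamine synthetase, had 916 ± 40.7 TPM. *NIA2*, the main nitrate reductase, had 206 ± 62.1 TPM and *NIA1*, the minor form, 51.5 ± 9.65 TPM. The transporter gene *NRT2:1*, known from roots, had 0.250 ± 0.0898 TPM. Per length the assimilation enzymes were thus far above this transporter.

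Clock genes were spread over a wide range of levels. *PRR7*, a daytime repressor of the clock, had 125 ± 9.90 TPM, and *TOC1*, its evening partner, 68.9 ± 5.47 TPM. *ELF4* and *PCL1*, parts of the evening complex, had 89.5 ± 4.35 TPM and 39.7 ± 1.99 TPM. *CCA1* and *LHY*, the transcription factors known for their peak at dawn, had 2.65 ± 0.735 TPM and 0.513 ± 0.121 TPM. *PRR9*, known for the morning, had 2.70 ± 0.918 TPM. Of the *PRR9* exonic pieces, 41.1% occur elsewhere in the genome, so its level is uncertain. On the TPM scale these 3 genes and *RVE8*, a relative of *CCA1* with 0.650 ± 0.0709 TPM, were the lowest of the 20 matched clock genes.

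The medium, called poor nutrient medium, held 0.01 µM FeSO4 and 5 mM KNO3 by the labels. Whether it limited any nutrient was not tested. Of the 18 matched phosphate starvation genes, 7 had a mean of at least 5 CPM. *SQD1* and *SQD2*, which make sulfolipids in place of phospholipids, had 31.2 ± 3.28 TPM and 22.5 ± 2.41 TPM. *SPX1*, a phosphate sensor, had 7.28 ± 0.886 TPM, whereas *IPS1*, a non-coding RNA known for very high levels under phosphate starvation, had 0, 0, 0 and 0.0383 CPM, which is 2 counts in replicate 4. Among the iron genes, *FER1*, a ferritin for iron storage, had 229.8 ± 54.9 TPM. The iron deficiency regulators *BHLH101* and *BHLH100* had 1.98 ± 0.319 TPM and 1.08 ± 0.454 TPM, and *bHLH38* and *bHLH39* had 0.0932 ± 0.0817 TPM and 0.0612 ± 0.0497 TPM. *CSD2* and *CSD1*, the copper superoxide dismutases, had 604 ± 53.4 TPM and 324 ± 44.4 TPM, above *FSD1*, the iron form, with 103 ± 52.3 TPM.

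The genes of steroid metabolism, to which the study is devoted, were mostly measured well. Of the 41 genes on the list for the progesterone pathway, steroid reductases and BRs, 34 had a mean of at least 5 CPM. Of the 3 enzymes that the study names for progesterone biosynthesis, the side chain cleaving enzyme *CYP87A2* (AT1G12740) was close to the limit of detection, with 0.165, 0.233, 0.278 and 0 CPM. Its 0 in replicate 4 allows a level of up to 0.0574 CPM if counts are independent, and more if they are not. The 3β-hydroxysteroid dehydrogenase *SDR5* (AT2G47140) had 3.90, 7.49, 2.18 and 1.46 CPM. Replicate 2 was the highest, and its log2 SD of 1.00 among the mock libraries was above that of any list member with 5 CPM or more. The ketosteroid isomerase AT2G33630 had 34.2, 37.7, 37.5 and 37.2 CPM, close together in all libraries. On the TPM scale the 3 genes reached 0.111 ± 0.0803 TPM, 4.67 ± 3.33 TPM and 29.6 ± 1.701 TPM.

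The steroid 5α-reductase *DET2* had 23.9, 18.8, 19.4 and 17.1 CPM, highest in replicate 1. *VEP1*, a progesterone 5β-reductase, had 248, 292, 323 and 348 CPM, lowest in replicate 1. Per length, *VEP1* stood at 242 ± 38.4 TPM and *DET2* at 24.7 ± 3.20 TPM. Of the cytochromes P450 of BR synthesis, *CPD* was the highest with 188 ± 19.2 TPM, while *DWF4*, which acts at the rate-limiting step, had 8.23 ± 1.72 TPM. *ROT3* and *CYP90D1*, which act redundantly, had 4.24 ± 0.490 TPM and 5.73 ± 0.709 TPM. For the last oxidations, *BR6OX2* had 29.1 ± 10.9 TPM and its relative *BR6OX1* only 0.0764 ± 0.0236 TPM. *BAS1* and *CYP72C1*, which inactivate BRs, had 10.3 ± 3.26 TPM and 3.01 ± 0.465 TPM.

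In BR signalling, the receptor *BRI1* had 67.1 ± 6.16 TPM and its relatives *BRL3* and *BRL1* 3.58 ± 0.320 TPM and 0.956 ± 0.238 TPM. The co-receptor *BAK1* had 50.8 ± 7.18 TPM, and the kinase *BIN2*, which represses the pathway, 100.96 ± 5.50 TPM. Of the BR transcription factors, *BES1* had 46.9 ± 4.77 TPM and *BZR1* 20.9 ± 1.097 TPM. The phosphatase gene *BSU1* was at 0.0939 ± 0.0503 TPM. *MAPR2*, *MSBP1* and *MAPR3*, the membrane-associated progesterone binding proteins, had 256 ± 31.3 TPM, 118 ± 6.73 TPM and 64.9 ± 7.07 TPM. *HMG1*, the main HMG-CoA reductase at the entry to sterols, was the highest of the list with 276 ± 49.9 TPM, and *HMG2* had 4.91 ± 0.928 TPM. The other 15 members, most of them enzymes of sterol synthesis, lay between 0.751 ± 0.324 TPM for *CYP710A1*, a sterol C-22 desaturase, and 180.3 ± 19.4 TPM for *DWF1*, a sterol reductase. Among them the sterol methyltransferase *SMT1* had 134 ± 9.13 TPM and its relatives *SMT2* and *SMT3* 94.5 ± 14.3 TPM and 97.9 ± 22.4 TPM. *CAS1*, which forms cycloartenol, the first sterol, had 29.3 ± 2.59 TPM, and the reductase *FK*, also known as FACKEL, 12.8 ± 3.09 TPM.

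**Figure D2:**
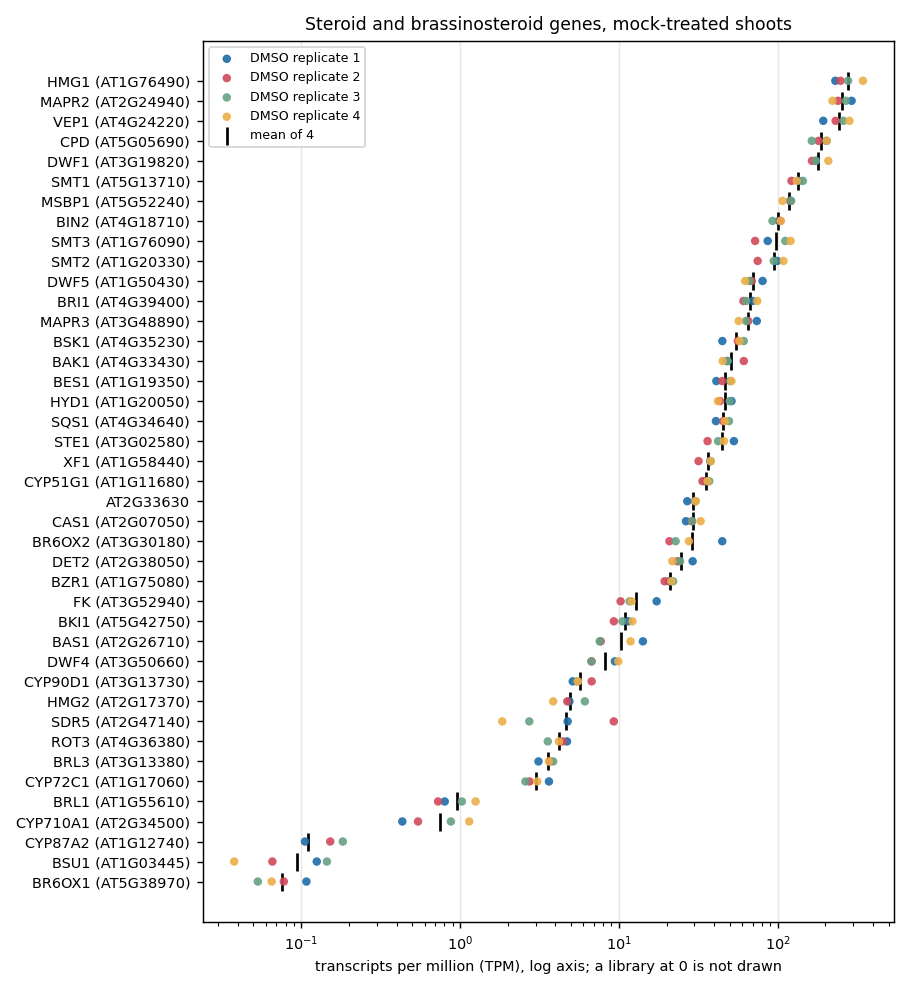
TPM (log axis) of the 41 steroid and BR genes in the 4 DMSO libraries, ordered by their mean (bar), with a library at 0 not drawn. *HMG1*, *MAPR2* and *VEP1* stood at the top, and *CYP87A2*, *BSU1* and *BR6OX1* lay below 1 TPM in each library.

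The labelled tissue was checked against markers of organs and cell types. The 6 mesophyll markers summed to 32483, 36707, 36869.6 and 36914 CPM. The 12 root markers summed to 4.18, 5.31, 6.05 and 5.17 CPM. Of these only *IRT1*, the iron transporter of the root epidermis, was at 0 in all libraries. *CASP2*, a protein of the root endodermis, was the highest root marker with 3.41, 2.98, 4.24 and 2.85 CPM. Some markers of shoot cell types were detected, as *GL2* of trichomes had 97.0 ± 14.1 CPM, *FMA* of guard cells 28.1 ± 6.54 CPM, *SUC2* of phloem 44.3 ± 3.57 CPM and *STM* of the shoot meristem 5.48 ± 0.849 CPM. These are single members, and many others were low. A mean of at least 5 CPM was reached by 2 of 6 trichome, 4 of 6 guard cell and 5 of 6 phloem markers. It was reached by 2 of 6 shoot meristem and 1 of 5 matched xylem markers. Markers of flowers were at 0 for *AP1* and *AP3* in all libraries. *PI*, a floral organ identity gene, nevertheless had 1.91, 4.57, 12.3 and 3.56 CPM, with replicate 3 the highest, and *SEP3*, another MADS-box gene, 12.9, 17.3, 17.4 and 8.39 CPM. Seed markers summed to 0.231, 0.0778, 0.0396 and 9.92 CPM. *CRA1*, a seed storage protein gene, had 2, 0, 0 and 378 counts, and *CRU3* and *OLEO2* also had counts in replicate 4 alone, at 1.26 and 0.728 CPM. The sums are of separate genes and serve to compare libraries, not cell types.

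Among the 15345 loci with a mean of at least 5 CPM, the replicates varied little. Variation was measured as the SD of log2(CPM + 0.1) over the 4 libraries (log2 SD). Its median was 0.16, and 3393 loci (22.1%) stayed under 0.1. A log2 SD of at least 0.5, taken here as variable, was reached by 502 loci (3.27%), and of at least 1 by 25. This SD chose the loci, so it is given without a test. Without replicates 1 to 4 in turn, 456, 464, 690 and 553 of all loci were variable. With TMM and DESeq2 scaling the numbers were 501 and 497. AT4G11211 lay just inside the limit and AT3G22160 just outside, both with a rounded log2 SD of 0.50. The share of variable loci was 5.77% between 5 and 10 CPM, 2.07% between 30 and 100 CPM and 5.25% between 300 and 1000 CPM, so variation was not confined to low loci. The common biological coefficient of variation from edgeR was 0.181 in DMSO, 0.168 in PO and 0.164 in TO. It is the spread beyond counting error only if counts are independent. Counts here were not all independent, so it may still hold counting error. With counts divided by 2 it was 0.163 in DMSO. Among the 6 pairs of mock libraries, the number of loci apart by at least 2-fold ran from 68 for replicates 3 and 4 to 326 for replicates 2 and 4. By the SD of the log2 difference, replicates 3 and 4 were again the closest (0.22), and replicate 1 was the farthest from replicates 2 and 4 (0.36 for either).

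**Figure D3:**
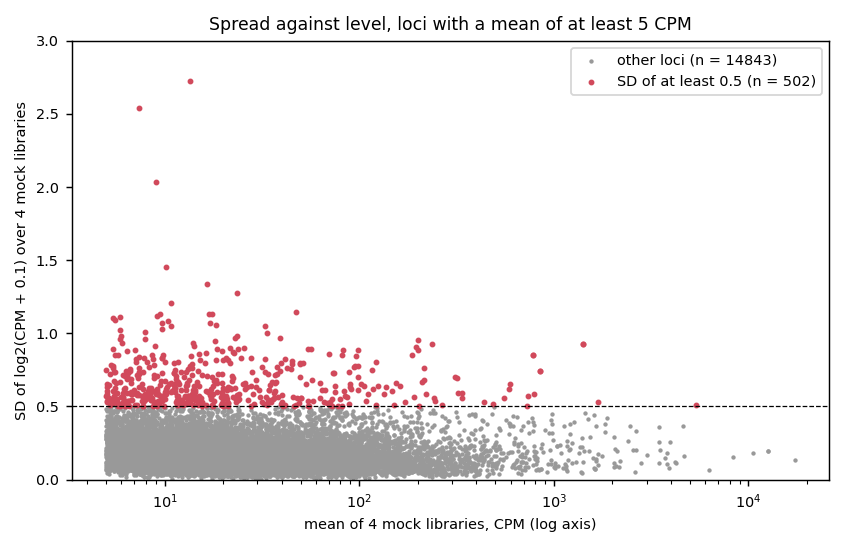
Log2 SD over the 4 DMSO libraries against the mean CPM (log axis) for the 15345 loci with a mean of at least 5 CPM. The 502 variable loci (red) lie above the dashed line at 0.5 and occur at low as well as at high CPM.

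Each library had its own share of the variable loci. The library farthest from the median was replicate 1 for 169 loci, replicate 2 for 170, replicate 3 for 46 and replicate 4 for 117. In replicate 2 most of these stood above the other libraries (138 above and 32 below), and in replicate 4 most stood below (26 above and 91 below). Replicate 1 was divided, with 91 above and 78 below. Near the minimum mean of 5 CPM, a locus can enter through 1 high library alone. Such loci were not set apart in the numbers above. Of the 502 variable loci, 47.0% were highest in replicate 2, which held the highest value of 20.6% of all 15345 loci.

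The gene with the largest spread was *FTM1* (AT1G43800, chromosome 1 from 16577521 to 16579722), annotated as a stearoyl-acyl carrier protein desaturase family member, with 0.395, 33.9, 16.8 and 2.99 CPM and a log2 SD of 2.72. It was lowest in replicate 1 and highest in replicate 2. AT2G05510, a glycine-rich protein gene, had 0.198, 4.71, 19.3 and 5.30 CPM. *MIOX4*, an oxygenase of myo-inositol, had 0.675, 12.9, 17.7 and 5.07 CPM. Both were lowest in replicate 1 and highest in replicate 3. *DIN2*, a dark-inducible beta-glucosidase gene, had 1.53, 4.14, 7.39 and 8.79 CPM. AT3G48390, an MA3 domain gene, had 2.37, 9.28, 9.81 and 10.5 CPM. In these genes, too, replicate 1 was the lowest.

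Other genes stood out in replicate 2. *CML37*, a calmodulin-like calcium sensor, had 1.91, 12.9, 4.82 and 4.10 CPM. *MPK11*, a MAP kinase of the immune response, had 2.63, 13.5, 3.59 and 3.83 CPM. In both, replicate 2 was well above the other libraries. These were under 5 CPM, so replicate 2 alone carried both genes past the minimum mean. AT1G56060, a cysteine-rich transmembrane protein gene, had 3.92, 35.1, 17.9 and 9.42 CPM. AT5G25260, of the SPFH family, had 2.83, 19.2, 9.32 and 6.53 CPM. AT1G10340, an ankyrin repeat gene, had 6.36, 34.5, 18.4 and 9.25 CPM. These 3 genes were highest in replicate 2, next highest in replicate 3 and lowest in replicate 1. *PAL1*, the enzyme at the entry to phenylpropanoids, had 43.6, 73.8, 22.1 and 16.5 CPM. *PP2-B13*, an F-box protein gene, had 8.94, 23.47, 4.76 and 4.65 CPM, although 452 of its bases overlap another locus. In these, replicate 1 came after replicate 2, and replicates 3 and 4 were low.

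Cell wall and stress genes followed other orders. *EXT3*, an extensin that cross-links the cell wall, had 5.07, 15.0, 15.4 and 35.0 CPM. AT1G21313, which lies on the other strand within *EXT3*, had 2.72, 9.04, 10.07 and 21.2 CPM. Both were highest in replicate 4, and reads of the pair may have been shared. AT4G12490, of the lipid transfer protein superfamily, had 27.2, 7.58, 9.56 and 50.5 CPM. Its overlapping neighbour AT4G12495 had 11.5, 2.39, 3.96 and 23.0 CPM. Both were low in replicates 2 and 3. AT1G19530 had 39.2, 12.6, 68.3 and 68.5 CPM, lowest in replicate 2. *GLYI7*, a glyoxalase I gene, had 6.19, 7.78, 25.97 and 28.1 CPM. AT1G35710, a leucine-rich repeat kinase gene, had 17.0, 13.2, 4.28 and 4.38 CPM. In *GLYI7* replicates 3 and 4 stood above 1 and 2, and in AT1G35710 below them. AT1G66100, a thionin gene, had 36.1, 25.5, 7.53 and 24.7 CPM, lowest in replicate 3. *BGLU43*, a beta-glucosidase gene, had 3.71, 2.98, 13.5 and 3.75 CPM. Only replicate 3 was high, and it alone carried the gene past the minimum mean of 5 CPM. AT3G22235, a cysteine-rich stress tolerance gene, had 16.4, 2.49, 9.04 and 8.63 CPM, lowest in replicate 2. Of the exonic pieces of AT3G22235, 85.7% occur elsewhere in the genome, so its level is uncertain.

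**Figure D4:**
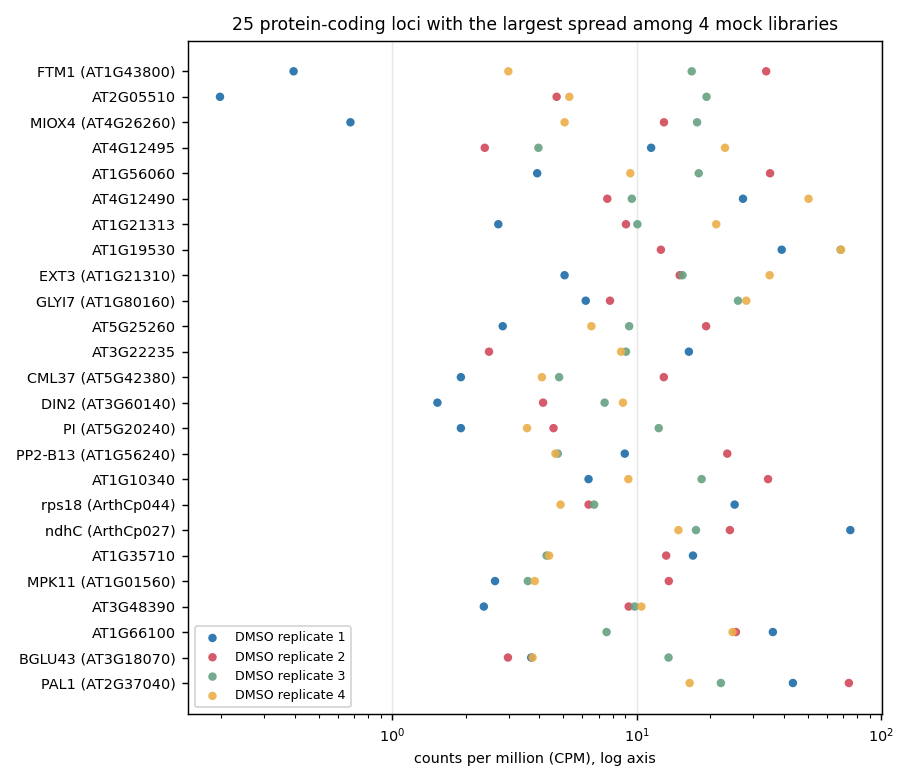
CPM (log axis) of the 25 protein-coding loci with the largest log2 SD in the 4 DMSO libraries, ordered from the largest SD at the top. *FTM1* ran from 0.395 CPM in replicate 1 to 33.9 CPM in replicate 2, and no order of the libraries was shared by all loci.

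The response genes to wounding, touch and cold were mostly higher in replicate 2. Of the 35 with a mean of at least 5 CPM, 16 (45.7%) were variable, beside 3.27% of all loci. Replicate 2 was the highest library for 26 of the 35 and for 20.6% of all loci. Without replicate 2, 1 of the 35 was variable. Their median deviation from the mean of the 4 libraries was -0.18, 0.58, -0.02 and -0.30 on the log2 scale, where that of all loci lay between -0.03 and 0.05. Their summed level was 1799.6, 2915, 1987 and 1694 CPM. The highest library was thus above the lowest by a factor of 1.72, against 1.23 in PO and 1.496 in TO. *TCH3*, a calmodulin-like touch gene, had 611, 1219, 611 and 491 CPM. *WRKY33*, a transcription factor gene of defence, had 42.9, 111, 56.4 and 48.5 CPM. *WRKY40*, another WRKY gene, had 48.8, 83.9, 40.3 and 25.96 CPM. Replicate 2 was the highest for each of these. *MYB15*, which acts in cold and defence, had 12.9, 32.6, 14.9 and 11.5 CPM. *ERF6*, an ethylene response factor gene of stress, had 15.3, 39.8, 22.3 and 19.1 CPM. *ZAT11*, a zinc finger gene, had 6.57, 17.4, 5.08 and 6.28 CPM. In these 3, replicate 2 stood well above the other libraries. *ERF5*, a relative of *ERF6*, had 8.55, 20.03, 13.6 and 9.00 CPM, with replicate 3 between. *MKK9*, a MAP kinase kinase gene of the same list, had 10.7, 12.3, 11.1 and 10.6 CPM. *NUDT21*, a Nudix hydrolase gene, had 13.9, 13.9, 12.5 and 12.5 CPM. These were close in all libraries. *CBF1*, a regulator of cold responses, was at 0.0659, 0.117, 0.0396 and 0.0766 CPM, near the limit of detection.

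Of the promoters of the 128 nuclear protein-coding loci that were variable and farthest from the median in replicate 2 on the high side, 29 (22.7%) held TTGACC and 41 (32.0%) held TTGACT, the W-box forms known from WRKY binding. Of all promoters, 1535 of 14531 (10.6%) and 2279 of 14531 (15.68%) held them. In the wound, touch and cold list, of which 26 were highest in replicate 2, the shares were 8 of 35 (22.9%) and 9 of 35 (25.7%). Of all 430 variable loci, 57 (13.3%) and 98 (22.8%) held them. On the low side, it was 5 (23.8%) and 6 (28.6%) of 21 for replicate 3, and 10 (11.9%) and 14 (16.7%) of 84 for replicate 4. High shares were thus not confined to loci high in replicate 2. GAANNTTC was in 22 of 128 (17.2%), in 51 of the 430 variable loci (11.9%) and in 1071 of 14531 (7.37%) of all. It was also in 6 of the 21 (28.6%) low in replicate 3. TATAAA was in 48 of 128 (37.5%), beside 5642 of 14531 (38.8%). CGCGTT was in 8 of 128 (6.25%), in 16 of the 430 (3.72%) and in 345 of 14531 (2.37%) of all. The following promoters of genes that were high in replicate 2 are shown with the W-box forms and their reverse complements in capitals.
WRKY33 promoter, chr2:16108035-16108234, plus strand: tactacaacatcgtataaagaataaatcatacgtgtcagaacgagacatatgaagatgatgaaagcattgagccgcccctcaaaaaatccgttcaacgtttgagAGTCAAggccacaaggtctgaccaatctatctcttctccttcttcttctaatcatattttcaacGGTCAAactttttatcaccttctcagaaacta
PP2-B13 promoter, chr1:21057578-21057777, minus strand: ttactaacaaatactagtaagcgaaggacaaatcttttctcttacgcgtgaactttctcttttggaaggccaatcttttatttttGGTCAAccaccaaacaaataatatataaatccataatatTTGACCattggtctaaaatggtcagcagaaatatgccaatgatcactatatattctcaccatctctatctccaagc
MPK11 promoter, chr1:201903-202102, plus strand: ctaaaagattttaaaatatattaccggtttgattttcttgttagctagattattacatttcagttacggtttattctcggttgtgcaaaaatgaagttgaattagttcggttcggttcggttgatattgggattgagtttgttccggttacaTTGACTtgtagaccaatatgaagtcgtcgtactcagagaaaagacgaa
PAL1 promoter, chr2:15560756-15560955, minus strand: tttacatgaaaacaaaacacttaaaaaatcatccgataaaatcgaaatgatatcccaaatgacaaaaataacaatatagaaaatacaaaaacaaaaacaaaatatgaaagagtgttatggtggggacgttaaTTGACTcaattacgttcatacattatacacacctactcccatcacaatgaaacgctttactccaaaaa

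*WRKY33* and *PP2-B13* held 2 matches each, and *MPK11* and *PAL1* 1 each. The promoters of *CML37* and *FTM1* held neither. No test was made of these shares either, and whether these letters had a part in the levels was not tested.

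Heat shock genes were mostly highest in replicate 1. Of the 22 with a mean of at least 5 CPM, 6 (27.3%) were variable, beside 3.27% of all loci, 15 were highest in replicate 1 and 12 lowest in replicate 3. Over all loci, replicate 1 was the highest for 41.02% and replicate 3 the lowest for 18.1%. Without replicate 1, 1 of the 22 was variable, and with TMM or DESeq2 scaling 3 were. Their median deviation was 0.39, 0.20, -0.31 and -0.21 on the log2 scale. *HSP23.6-MITO*, a small heat shock protein of mitochondria, had 34.6, 19.6, 7.77 and 10.8 CPM. *HSP17.6II*, a cytosolic small heat shock protein, had 171, 102, 58.8 and 77.5 CPM. *HSP17.6A*, another, had 339.8, 243, 144 and 154 CPM. In these, replicate 1 was the highest, then replicate 2, and replicate 3 was the lowest. *HSP101*, which dissolves protein aggregates, had 419, 370.1, 207 and 268 CPM. *HSP81-2*, an HSP90 gene, had 1368, 975, 740.0 and 765 CPM. Their order of libraries was that of the small heat shock genes. *GolS1*, which makes galactinol, had 105, 49.6, 46.6 and 62.6 CPM and was high in replicate 1 alone. *BAG6*, a co-chaperone gene, had 108, 104, 55.0 and 61.2 CPM, with replicates 1 and 2 above 3 and 4. *HSFA1D*, a constitutive heat shock factor, had 12.4, 12.6, 11.5 and 11.5 CPM, close in all libraries. GAANNTTC was in 5 of 22 (22.7%) promoters of this list, and in 10 of 35 (28.6%) of the wound, touch and cold list, beside 7.37% of all.

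Replicate 1 also stood apart in growth and sugar genes. Of the 25 growth and auxin genes, 18 were highest in replicate 1, the highest library for 41.02% of all loci. Their median deviation there was 0.31 on the log2 scale. Variable were 3 of the 25 (12.0%), beside 3.27% of all loci (2 without replicate 1 or with TMM or DESeq2 scaling). *SAUR22*, of the small auxin up RNA family, had 12.6, 8.27, 3.67 and 5.19 CPM. *IAA19*, an auxin repressor gene, had 35.1, 21.7, 21.3 and 20.9 CPM, with only replicate 1 apart. *HFR1*, of light signalling, had 17.59, 19.5, 8.01 and 11.8 CPM, high in replicates 1 and 2. Of the 19 sugar and dark response genes, 11 were lowest in replicate 1, as were 22.2% of all loci. Another 6 were highest in replicate 1, as were 41.02% of all loci, so the 19 genes did not share 1 direction. Their summed level was 2759, 4114, 4325 and 4313 CPM, and its highest library was above its lowest by a factor of 1.57, against 1.52 in PO and 1.505 in TO. *ASN1*, an asparagine synthetase gene repressed by sugar and light, had 286, 663, 794 and 633 CPM. *DIN10*, of raffinose metabolism, had 872, 1669.5, 1542 and 1677 CPM. In both, replicate 1 was well below the other libraries. *BGAL4*, a beta-galactosidase gene, had 151, 236, 287 and 303 CPM. *TPS11*, of trehalose metabolism, had 71.8, 163, 120.1 and 129 CPM. Replicate 1 was again the lowest. Of the 19 genes, 4 (21.1%) were variable, beside 3.27% of all loci. The number was 2 without replicate 1, 6 with TMM and 7 with DESeq2 scaling.

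None of the 63 photosynthesis genes with a mean of at least 5 CPM was variable (1 without replicate 1 or 4), while 33 were lowest in replicate 1 (22.2% of all loci were) and 27 highest in replicate 2 (20.6% of all loci). Antenna genes of photosystem II had the largest spread of the list. *LHCB2.3* had 44.0, 71.5, 33.4 and 48.2 CPM. *LHCB2.1* had 454, 813, 441 and 564 CPM. *LHCB3* had 1502, 2642, 1544 and 1676 CPM. All 3 were highest in replicate 2. *LHB1B1*, with 3733, 6474, 3816 and 4316 CPM, and *LHCB2.2*, with 381, 624, 345 and 463 CPM, followed the same order at the top. *LHCB2.1* and *LHCB2.2* share 23.55% and 29.5% of their exonic pieces with other places of the genome. Among the nitrate genes, 3 of 24 (12.5%) were variable, beside 3.27% of all loci, and none without replicate 1. These were *ASN1*, *BT1* and *NRT1.8*. The regulator *BT1* had 50.4, 126, 74.5 and 66.9 CPM, highest in replicate 2. The transporter gene *NRT1.8* had 7.31, 15.6, 19.98 and 13.2 CPM, lowest in replicate 1. *NIA2* had 309.8, 641, 432 and 536 CPM, also lowest in replicate 1. *GS2*, by contrast, had 1363, 1362, 1444 and 1427 CPM, nearly level.

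**Figure D5:**
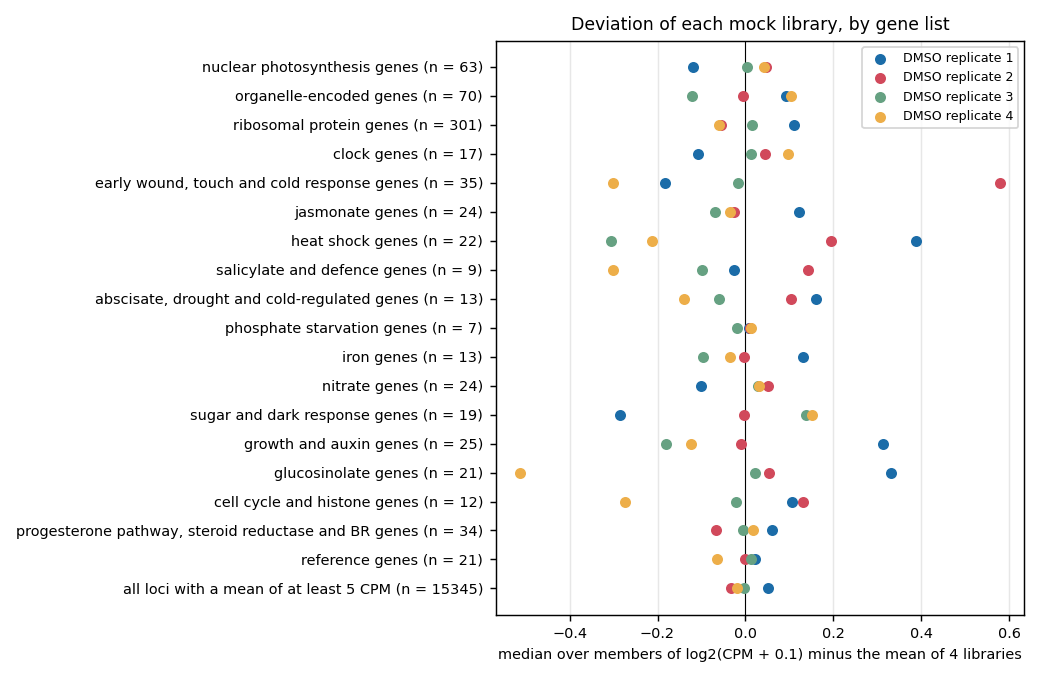
Median over the members of each gene list of the log2(CPM + 0.1) of a library minus the mean of the 4 DMSO libraries, with 1 point per library. Replicate 2 stands at 0.58 for the wound, touch and cold list, replicate 1 at 0.39 for heat shock and at -0.29 for sugar and dark genes, and replicate 4 at -0.51 for glucosinolate genes.

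Glucosinolate genes were mostly lowest in replicate 4. Glucosinolates are the sulfur-containing defence compounds of the cabbage family. Of the 21 genes with a mean of at least 5 CPM, 16 were lowest in replicate 4, the lowest library for 27.8% of all loci, with a median deviation of -0.51 there and of 0.33 in replicate 1 on the log2 scale. Variable were 7 (33.3%), beside 3.27% of all loci. Of the 21 genes, 3 were variable without replicate 4 and 13 without replicate 3. The highest library was above the lowest in summed level by a factor of 1.60, against 1.60 in PO and 1.40 in TO. *CYP79B2*, the first enzyme of the indolic branch, had 19.8, 31.3, 16.7 and 7.03 CPM. *SOT16*, a sulfotransferase of the last step, had 75.9, 122, 58.5 and 42.7 CPM. In both, replicate 2 was the highest and replicate 4 the lowest. *CYP79F1*, the first enzyme after chain elongation in the aliphatic branch, had 14.5, 9.92, 14.5 and 5.53 CPM. *BCAT4*, an aminotransferase of chain elongation, had 40.1, 27.9, 35.3 and 14.9 CPM. *SOT17*, another sulfotransferase, had 10.11, 15.0, 9.83 and 3.79 CPM. Replicate 4 was the lowest here as well. The myrosinase *TGG1*, which hydrolyses glucosinolates, was the most abundant of the list with 872 ± 236 TPM. The regulator *MYB51*, which also stands on the wound list, had 11.6, 25.4, 14.0 and 10.7 CPM, highest in replicate 2.

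Of the 9 salicylate and defence genes with a mean of at least 5 CPM, 4 (44.4%) were variable, beside 3.27% of all loci. Without replicate 2, 1 of the 9 was variable. *PAD4*, an immune regulator, had 17.2, 38.3, 17.9 and 14.6 CPM. *EDS1*, its partner, had 17.8, 34.5, 17.8 and 14.2 CPM. *CBP60G*, a regulator of salicylate synthesis, had 15.1, 33.3, 20.3 and 14.0 CPM. These 3 were highest in replicate 2. *WRKY70*, which links salicylate and jasmonate responses, had 12.7, 5.70, 7.57 and 3.71 CPM, highest in replicate 1. The salicylate marker *PR1* had 0.0659, 0, 0.0396 and 0.842 CPM, low throughout. Of the 24 jasmonate genes, 2 (8.33%) were variable, beside 3.27% of all loci (5 without replicate 1 or 3, and 3 in each other alternative run). *AOC3*, a biosynthetic cyclase, had 26.3, 35.2, 17.2 and 8.31 CPM. *CYP94C1*, which inactivates the hormone, had 9.45, 10.13, 8.15 and 4.14 CPM. Both were highest in replicate 2 and lowest in replicate 4. *MYC2*, the master regulator, had 31.4, 29.4, 30.03 and 32.2 CPM, nearly level. *VSP2*, a storage protein gene known as a jasmonate marker, had 2.85, 3.03, 4.06 and 2.43 CPM.

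In the other lists few loci were variable or none. Of the 13 abscisate, drought and cold-regulated genes, *KIN2* was variable (none without replicate 3), with 57.1, 61.9, 26.9 and 36.1 CPM, high in replicates 1 and 2. Of the 13 iron genes, *FSD1* was, with 63.2, 189.9, 139 and 74.1 CPM, high in replicates 2 and 3. Of the 34 steroid and BR genes, *BR6OX2*, which makes brassinolide in the last oxidation, was, with 63.7, 29.2, 31.6 and 37.8 CPM, high in replicate 1 alone. None of the 34 was variable without replicate 1 or with TMM or DESeq2 scaling, and 2 were without replicate 4. The median log2 SD of these 34 was 0.17, beside 0.16 for all loci. No variable locus was found among 17 clock, 7 phosphate, 12 cell cycle and 21 reference genes, nor among 301 ribosomal protein genes (1 without replicate 1 or 3).

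Chloroplast loci were also among the variable ones. Of 63 chloroplast loci with a mean of at least 5 CPM, 23 were variable, beside 430 of 14532 nuclear protein-coding loci (2.96%). Of all 70 organelle loci 24 were variable, and 8 were without replicate 1. The chloroplast ribosomal RNA gene *rrn23S* had 827, 599, 2212 and 1985 CPM, low in replicates 1 and 2. All of its pieces occur again in its other copy, ArthCr089. Some messenger RNAs of the chloroplast had another order. *ndhC*, of the NADH dehydrogenase-like complex, had 74.8, 24.1, 17.5 and 14.8 CPM. *rps18*, of the small ribosomal subunit, had 25.2, 6.36, 6.70 and 4.88 CPM. In both, replicate 1 was the highest by far. Chloroplast ribosomal RNA took 0.273%, 0.190%, 0.720% and 0.571% of the counts and chloroplast protein-coding loci 0.771%, 0.648%, 0.519% and 0.573%. The libraries were made with oligo(dT) beads, which capture RNA by its poly(A) tail, and the part of this step in the differences was not tested.

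The spread was then measured in libraries that had not chosen the loci. Of the 502 variable loci, 169 (33.7%) also reached a log2 SD of 0.5 among the 4 PO libraries, where 2.64% of all 15345 loci did, and 189 (37.6%) among the 4 TO libraries, where 2.29% did. They made up 41.7% of the 405 loci at this SD in PO and 53.7% of the 352 in TO. The variable loci had a median log2 SD of 0.40 in PO and 0.41 in TO, beside 0.14 for all loci in either group. In all 3 groups 85 loci (16.9%) reached the limit, and 229 (45.6%) did so in the mock libraries alone. *FTM1* had a log2 SD of 1.55 in PO and 2.30 in TO. AT2G05510 had 2.602 in PO and 1.51 in TO, and *MIOX4* 1.25 in PO and 1.22 in TO. The 3 loci with the largest spread were thus variable in each group. *ASN1*, with 0.59 in PO and 0.67 in TO, and *CYP79B2*, with 1.02 in PO and 0.85 in TO, also reached the limit in both. *PAL1*, with 0.31 in PO and 0.37 in TO, and *TCH3*, with 0.12 in PO and 0.49 in TO, stayed under it. By list, 4 of the 35 wound, touch and cold genes reached the limit in PO and 5 in TO, where it was 16 in the mock libraries. Glucosinolate genes reached it in 10 of 21 in PO and 2 in TO, and organelle loci in 8 of 70 in PO and 30 in TO.

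At the other end, many genes hardly differed between the mock libraries. The smallest spread at a mean of at least 20 CPM was that of AT2G45820, a remorin gene, with 156, 157, 158 and 157 CPM. *ARA-2*, a small GTPase gene, had 60.0, 59.3, 60.3 and 59.8 CPM. *AMSH1*, which removes ubiquitin, had 62.97, 62.4, 62.98 and 63.7 CPM. These values differed by little more than their last digit. *RPT4A*, of the proteasome, had 29.1, 28.8, 29.0 and 29.4 CPM, and *VAMP724*, of vesicle fusion, 113, 113, 112 and 111 CPM. All of these, together with AT3G53470, AT1G75210, AT5G65685, AT1G69070 and AT4G20720, were at a log2 SD of 0.01, and were chosen for it. Each had a larger log2 SD in the PO and TO libraries, which had not chosen them, at 0.07 in PO and 0.09 in TO for AT2G45820 and 0.21 in PO and 0.11 in TO for *VAMP724*. Of the exonic pieces of AT4G20720, 89.5% occur elsewhere in the genome.

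Genes used as references in qPCR were steady as a group, with a median log2 SD of 0.10 over 21 genes, beside 0.16 for all loci. *UBQ5*, a ubiquitin fusion gene, had 237, 233, 239.7 and 233 CPM. *TUB4*, a tubulin gene, had 390.3, 408, 396 and 406 CPM. Their log2 SDs were 0.02 and 0.03, the lowest of the list. Next in log2 SD were *TUA6* (0.04), *EIF4A1* (0.05), *PP2AA3* (0.06), *GAPC2* (0.06) and *YLS8* (0.07). The actin genes *ACT2*, *ACT7* and *ACT8* had 0.09, 0.08 and 0.13. The widest of the list was *UBC9*, a ubiquitin-conjugating enzyme gene, with 161, 135, 138 and 110.0 CPM and a log2 SD of 0.23. *UBQ10*, a polyubiquitin gene, had 1352, 1747, 1289.9 and 1353 CPM, with replicate 2 apart and a log2 SD of 0.20. *CYP5*, *PEX4* and *UBQ11* had log2 SDs of 0.21, 0.20 and 0.20. The others lay between 0.08 (*UBC10*) and 0.16 (*ROC3*), among them *ROC5*, *GAPC1*, *TUB2* and AT2G28390.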

How the data were processed

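RNAseq counts of 12 Col-0 shoot samples were used. The deposited table holds whole read counts for each locus and library, not normalised, which the authors made with bcl2fastq 2.20, fastp 0.23.2, FastQC 0.11.9, HISAT2 2.2.1, SAMtools 1.11 and featureCounts 2.0.1 on TAIR10, per the labels. The kit was strand-specific with oligo(dT) enrichment. Whether counting used strand, pairs or overlapping loci is not given in the sources used here. Even numbers made up 70.2% to 72.3% of the counts from 1 to 20.

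Counts were divided by the library total (CPM). Spread was the SD of log2(CPM + 0.1) over the 4 DMSO libraries, for loci with a mean of at least 5 CPM. TPM used the merged exon length of the RefSeq annotation of TAIR10.1, in which 38292 of 38618 loci (99.2%) were found. No treatment contrast and no test between groups was made. edgeR 4.0.16 (R 4.3.3) gave TMM factors and the common biological coefficient of variation, and DESeq2 1.42.0 gave size factors. Other steps used Python 3.11.15, numpy 2.4.6, pandas 2.3.3, scipy 1.17.1 and matplotlib 3.10.9. The steps were tested on simulated data. Limits at 0 counts cover counting error only, for independent counts.

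Named genes were the 20 nuclear protein-coding loci highest in CPM, the 10 highest in TPM, the 25 with the largest and the 10 with the smallest log2 SD (the latter at a mean of at least 20 CPM), and members of 18 gene lists and 10 marker lists. Members and lists were chosen with earlier results of these data known. Symbols were matched to RefSeq names, and 2 matches, for FDH and SAUR21, were dropped because the synonym belongs to another gene. Alternatives were TMM, DESeq2 and nuclear-total scaling, a pseudocount of 1, minimum means of 0, 1 and 10 CPM, and leaving out each replicate. For the number of variable loci, loci with overlapping exons were also left out. Replicates differ by biological and technical spread, which cannot be told apart.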

Additional observations from a re-analysis of the deposited data

Results flagged for a closer look

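In each group of 4 libraries, a value was marked when the gap between the highest or lowest library and its nearest neighbour took up so much of the range of the group that it passed Dixon's 95% limit. Chance marks about 1 in 20 groups, and among the 15345 loci with a mean of at least 5 CPM 1029 (6.71%) were marked. Of the values in the text, 34 were marked, all of them among the DMSO libraries. The check covered 196 loci named in the text, beside sums and shares. Some of these loci were named for their spread, so their marks cannot be set against the 6.71%.

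Among single loci, replicate 2 was apart in 11, replicate 1 in 8, replicate 4 in 6 and replicate 3 in 2. The other marked values are sums and shares, which overlap with each other or with single loci. Replicate 1 was low in *NIA1* (87.3 CPM, others 125 to 131 CPM), AT2G33630 (34.2 CPM, others 37.2 to 37.7 CPM), AT3G48390 (2.37 CPM, others 9.28 to 10.5 CPM) and *DIN10* (872 CPM, others 1542 to 1677 CPM). Its summed levels were low for nitrate genes (5425 CPM, others 6689 to 6852 CPM), for sugar and dark response genes (2759 CPM, others 4114 to 4325 CPM) and for mesophyll markers (32483 CPM, others 36707 to 36914 CPM). Its share of counts was low for the 100 highest loci (23.59%, others 25.04% to 25.2%) and for the 1000 highest loci (50.7%, others 52.4% to 52.6%). It was high in *GL2* (118 CPM, others 88.9 to 92.0 CPM), the trichome gene, and so was the summed level of the trichome markers (129.1 CPM, others 98.4 to 101.4 CPM), most of which is *GL2*. It was also high in *IAA19* (35.1 CPM, others 20.9 to 21.7 CPM) and in the chloroplast genes *ndhC* (74.8 CPM, others 14.8 to 24.1 CPM) and *rps18* (25.2 CPM, others 4.88 to 6.70 CPM).

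Replicate 2 was high in the response genes *MPK11* (13.5 CPM, others 2.63 to 3.83 CPM), *ZAT11* (17.4 CPM, others 5.08 to 6.57 CPM), *TCH3* (1219 CPM, others 491 to 611 CPM), *MYB15* (32.6 CPM, others 11.5 to 14.9 CPM) and *PAD4* (38.3 CPM, others 14.6 to 17.9 CPM). It was also high in the clock gene *PRR9* (6.34 CPM, others 3.23 to 3.69 CPM), *CYP90D1* (11.0 CPM, others 8.48 to 8.81 CPM), *UBQ10* (1747 CPM, others 1289.9 to 1353 CPM), AT4G28755 (1269.7 CPM, others 1083 to 1105 CPM) and *LHCB3* (2642 CPM, others 1502 to 1676 CPM). AT4G20720, one of the steadiest loci, was marked although replicate 2 (31.0 CPM) differed little from the others (31.3 CPM in each).

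Replicate 3 was apart in *BGLU43* (13.5 CPM, others 2.98 to 3.75 CPM) and low in *BIN2* (179 CPM, others 199.6 to 202 CPM). Replicate 4 was low in *MSBP1* (86.6 CPM, others 99.4 to 100.7 CPM) and high in *PR1* (0.842 CPM, others 0 to 0.0659 CPM). The seed storage and oil body genes had nearly all of their counts in replicate 4, with *CRA1* at 7.24 CPM (others 0 to 0.0329 CPM), *CRU3* at 1.26 CPM, *OLEO2* at 0.728 CPM (others 0 for both) and the summed seed markers at 9.92 CPM (others 0.0396 to 0.231 CPM). *IPS1* was marked with 0.0383 CPM in replicate 4 and 0 in the others, which is 2 counts. Whether the libraries that stood apart differed in tissue, handling or preparation was not tested.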

How the results depend on the processing

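The number of loci with a log2 SD of at least 0.5 was 502. It was 1213 with a minimum mean of 1 CPM and 4249 with no minimum, since more loci then enter. It was 338 with a minimum mean of 10 CPM, 410 with a pseudocount of 1 CPM and 352 without the loci with overlapping exons. Leaving out 1 replicate gave 456 to 690 loci. The share of the variable loci that reached the same SD in the PO libraries ran from 27.7% to 36.0%, and in the TO libraries from 29.0% to 37.5%, when 1 mock replicate was left out. Taken per length (TPM) rather than as counts, the share of the gene lists was 16.7% for photosynthesis, 3.66% for organelle loci, 5.45% for ribosomal proteins, 0.0740% for clock, 0.150% for wound, touch and cold, 0.0611% for jasmonate, 0.595% for heat shock, 0.0131% for salicylate, 0.0919% for abscisate, drought and cold-regulated, 0.0127% for phosphate, 0.164% for iron, 0.389% for nitrate, 0.207% for sugar and dark, 0.218% for glucosinolate, 0.0116% for cell cycle, 0.245% for steroid and BR and 0.577% for reference genes. The common biological coefficient of variation was 0.163 to 0.199 without 1 replicate, and 0.163 with counts divided by 2. TMM scaling moved the median of all loci by -0.07 in replicate 1 and by 0.01 to 0.03 in the others on the log2 scale. No paired analysis was possible because no groups were compared. Whether equal replicate numbers mark paired samples was not settled. Deviations of same-numbered mock and PO or TO libraries correlated at -0.22 to 0.39, and those of differently numbered libraries at -0.46 to 0.39. These overlapping ranges cannot decide it. Data were also simulated with the same coefficient of variation at every locus, set below the 0.181 of the mock libraries. There 1 library shifted by 2-fold passed the SD limit in 60 of 100 loci and by 4-fold in 100 of 100. Thus 2-fold shifts of 1 library can be missed. Without a shift, 33 of 15115 simulated loci passed the limit, beside 502 of 15345 loci in the mock libraries. The simulated spread was therefore not that of the mock libraries, in part because of the lower setting. These numbers hold for that setting only.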
